A study of Arabidopsis thaliana with 6 samples.

Results

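Aquaporins are membrane channels for water and other small neutral solutes. The Arabidopsis family was taken by gene name as 35 loci, the PIP1 genes (5), the PIP2 genes (8), the TIP genes (10), the NIP genes (9) and the SIP genes (3), out of 27416 loci in the deposited tables. All 35 were found in the tables. Genes are written in the hyphenated form used for the proteins, so that TIP2-1 is the gene written TIP2;1 in Arabidopsis nomenclature. The study compared transcript profiles of the ucp1 ucp3 double mutant with those of wild-type plants, both in the Columbia ecotype. UCP1 and UCP3 belong to the uncoupling protein family of mitochondrial inner membrane carriers. Each group had 3 libraries of polyadenylated RNA from vegetative tissue of plants aged 21 days, grown on MS medium without further treatment. The libraries are written M1 to M3 for ucp1 ucp3 replicates 1 to 3 and W1 to W3 for wild-type replicates 1 to 3. Neither the alleles nor the way in which the biological replicates were kept apart is given in the sources used here, so the p-values measure the spread between these samples.

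Plasma membrane intrinsic proteins (PIPs) carry water across the cell surface, and PIP1 proteins usually reach the plasma membrane in complexes with PIP2 proteins. Tonoplast intrinsic proteins (TIPs) sit in the vacuolar membrane, where they let water and, for some members, ammonia or urea pass. The nodulin 26-like proteins (NIPs) carry metalloids such as boric acid and other small solutes, and the small basic proteins (SIPs) are found in the endoplasmic reticulum. Water enters through the roots and leaves through the shoot, and aquaporins are active in both, so a change in their transcripts in mixed vegetative tissue cannot be assigned to one organ.

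An aquaporin pore is lined by a pair of short loops that carry the motif asparagine, proline, alanine (NPA). The motif is shown for the 5 genes that were called in the comparison below, because it is what these otherwise divergent channels share. Each line gives the reference coding sequence around one motif, from RefSeq (TAIR10.1), read 5′ to 3′ on the coding strand, with the codons of the motif in capitals and positions counted from the A of the start codon.
TIP2-1 first motif, bases 226 to 276: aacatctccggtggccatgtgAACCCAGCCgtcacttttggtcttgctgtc
TIP2-1 second motif, bases 568 to 618: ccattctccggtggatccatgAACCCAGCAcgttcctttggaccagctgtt
PIP1-3 first motif, bases 319 to 369: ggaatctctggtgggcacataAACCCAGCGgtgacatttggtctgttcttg
PIP1-3 second motif, bases 682 to 732: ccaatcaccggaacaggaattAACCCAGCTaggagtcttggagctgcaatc
PIP1-5 first motif, bases 322 to 372: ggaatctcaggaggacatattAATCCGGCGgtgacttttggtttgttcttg
PIP1-5 second motif, bases 685 to 735: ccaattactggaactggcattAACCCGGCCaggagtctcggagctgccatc
PIP2-7 first motif, bases 277 to 327: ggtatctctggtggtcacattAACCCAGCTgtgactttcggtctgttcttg
PIP2-7 second motif, bases 640 to 690: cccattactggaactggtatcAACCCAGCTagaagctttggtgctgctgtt
NIP2-1 first motif, bases 295 to 345: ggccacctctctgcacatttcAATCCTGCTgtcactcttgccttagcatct
NIP2-1 second motif, bases 652 to 702: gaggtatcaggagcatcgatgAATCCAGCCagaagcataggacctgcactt

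Searched in frame on the coding strand as AAT or AAC followed by CCN and GCN, the motif occurred 2 times in 27 of the 35 genes. It occurred once in 7 genes, which were NIP1-1, NIP1-2, NIP6-1, NIP7-1 and the 3 SIP genes, and not at all in NIP5-1. The search took only the exact motif, so altered forms were not counted and a missing match does not show that a loop is absent. Of 26710 loci with a coding sequence, 76 (0.285%) held the exact motif at least 2 times. Identity between coding sequences ranged from 79.5% to 87.6% among PIP1 genes and from 69.3% to 94.8% among PIP2 genes. It reached down to lower values within the TIP genes (53.7% to 81.5%), the SIP genes (50.9% to 74.9%) and the NIP genes (46.6% to 88.0%). PIP2-2 and PIP2-3 were the closest pair, and their reads are discussed with their values.

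Depth differed 9.54-fold, between 1183600 reads in M3 and 11296133 reads in M2. Levels of a gene are given in CPM, its reads scaled to a common library size, and 3 reads stood for between 0.264 CPM in M2 and 2.71 CPM in M3. The shallowest library, M3, also stood apart in the principal component analysis, scoring 59.3 on a component that took 47% of the variance, while the other 5 libraries scored between -28.8 and 9.42. UCP1 and UCP3 transcripts did not check the labels. UCP1 was estimated at -0.35 and UCP3 at -0.49 on the log2 scale (edgeR adjusted p = 0.226 and 0.224), so every direction below rests on the labels, and the group is called the labelled mutants. Markers of both roots and green shoots were present in every library. Of 3 seed markers, OLEO1 had 0 reads in all 6 libraries and CRA1 and EM6 at most 3 reads in any. Of the pollen markers, VGD1 and AGP11 had 0 reads in all 6, PPME1 had 1 read over all of them, and AGP6 had between 1 and 5 reads in every library.

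Transcripts of 5 aquaporin genes were called higher in the labelled mutants, and those of 0 lower. Of the 5, TIP2-1 of the vacuolar membrane and PIP1-3, PIP1-5 and PIP2-7 of the plasma membrane passed the read filter in both groups. The other, the rare NIP2-1, passed it only through the labelled mutants and so had to differ. Of the 35 genes, 28 had enough reads to be tested, and 23 of these did not pass (edgeR quasi-likelihood test, adjusted p under 0.05 over all genes). Over all 17415 genes tested, 0.781% were called higher and 0.482% lower. At an unadjusted p under 0.05, 11 of the 28 were higher, against 8.04% of all tested genes. Among members with a mean of at least 100 CPM it was 8 of 13, against 301 of the 1861 genes with such a mean. The count of 0 lower held at that unadjusted p as well, where 8.37% of all tested genes were lower. It also held with limma-voom and with DESeq2, which gave no adjusted p for 10 of the 28.

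The number of aquaporin genes called higher depended on single libraries. It was 1 when W1, M1 or M3 was left out, and in each of these cases the one gene was TIP2-1. It was 3 without W3, 4 without W2 and 7 without M2. Over all genes, the share called higher in those fits ranged from 0.175% without W1 to 1.84% without M2.

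The estimates of the tested aquaporins were mostly above 0. Of 28, 22 were above 0 and 6 below, against 49.7% above 0 among all tested genes. Of these 28, PIP1-4 and SIP1-2 turned below 0 (-0.06 and -0.01) when libraries were scaled by their totals. The median log2 fold change of the 28 was 0.17, between -0.52 for PIP2-4 and 2.31 for NIP2-1, and the median of all tested genes was 0.00. That of the aquaporins was 0.39 without M2, 0.29 without W1 or W2 and 0.33 after thinning to the shallowest library. In 8 of the 28, every labelled mutant lay above every wild-type library, against 11.2% of all tested genes, and in 0 did every labelled mutant lie below, against 12.4%. Among the 13 with a mean of at least 100 CPM, 6 lay above in this way and 0 below. Of the 1861 genes at that level, 364 lay above and 303 below. These counts are descriptions, and those over the 28 include NIP2-1. The estimates above 0 also include NIP6-1, which reached the filter's level in 3 labelled mutants and 1 wild-type library.

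**Figure D1:**
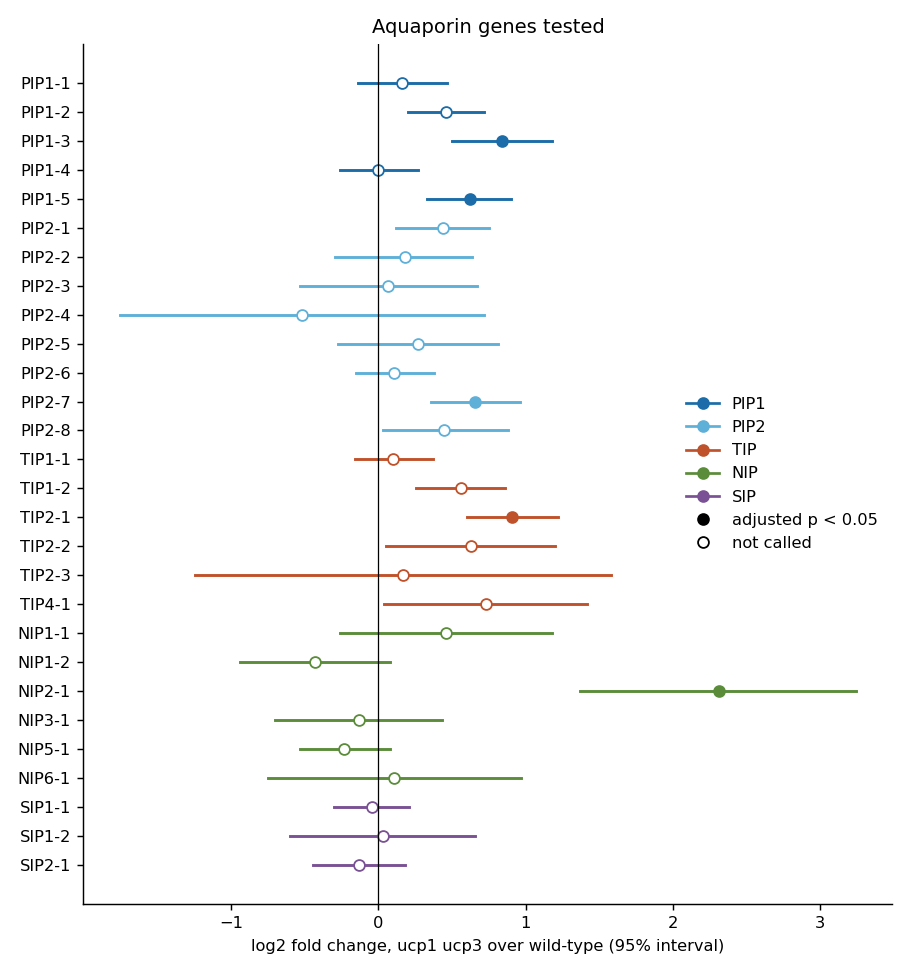
Log2 fold changes, ucp1 ucp3 over wild-type, of the 28 aquaporin genes tested, with 95% intervals as bars. Filled points mark the 5 genes with an adjusted p under 0.05, all right of 0, and the tested TIP and PIP1 genes have no estimate below 0, with PIP1-4 at 0.00 here and at -0.06 when libraries were scaled by their totals.

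Vegetative tissue holds many cell types, and in such samples fewer cells of a type and less RNA per cell cannot be told apart. Of 16 root markers, 14 were tested and 0 were called, but 13 of the 14 had estimates above 0, with a median log2 fold change of 0.53 and a range of -0.18 for PYK10 to 1.21 for LRX1 (edgeR adjusted p = 0.0761). In 4 of the 14, CASP2, CASP4, LRX1 and NRT2.1, every labelled mutant lay above every wild-type library, against 11.2% of all tested genes. In 0 of the 14 did every labelled mutant lie below, against 12.4%. CASP5, too rare to test, went the other way, with 0, 2 and 0 reads in the labelled mutants against 4, 4 and 2 in wild-type. The summed root markers ranged from 1668 to 2187 CPM in the labelled mutants and from 1829 to 2640 CPM in wild-type. That sum was mostly PYK10, and without it the range was 224 to 354 CPM in the labelled mutants and 158 to 249 CPM in wild-type. Both sums overlapped between groups, and no tested root marker was at 0. At an unadjusted p under 0.05, 3 of the 14 root markers were higher and 0 lower, against 8.04% higher and 8.37% lower of all tested genes, limma-voom called 0, and DESeq2 called 0 with no adjusted p for 10 of them.

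Of 8 green shoot markers, all tested, 0 were called by edgeR, DESeq2 or limma-voom. At an unadjusted p under 0.05, 1 of 8 was higher, against 8.04% of all tested genes. All 8 had a mean of at least 100 CPM, a level at which 301 of 1861 genes were higher at that p. Estimates were above 0 in 7 of the 8 markers, and the median was 0.17. In 2 of the 8, RCA and PSBO1, every labelled mutant lay above every wild-type library, and in 0 below. Over all tested genes these shares were 11.2% and 12.4%, and of the 1861 genes 364 lay above and 303 below. The summed green shoot markers ranged from 27351 to 34011 CPM in the labelled mutants and from 26238 to 28655 CPM in wild-type. The 3 guard cell markers summed to between 24.7 and 27.1 CPM in the labelled mutants and between 25.2 and 29.5 CPM in wild-type, and the 2 vascular markers to between 146 and 167 CPM in the labelled mutants and between 124 and 148 CPM in wild-type. Of 3 seed markers 0 had enough reads to test, and of 7 flower and pollen markers 1 did (PI, log2 fold change 0.36). The flower and pollen markers summed to between 4.11 and 7.22 CPM in the labelled mutants and between 3.25 and 3.89 CPM in wild-type, without overlap. In TPM these sums overlapped, at 4.22 to 7.89 TPM in the labelled mutants and 3.84 to 4.87 TPM in wild-type. The seed markers summed to at most 0.903 CPM in any library. The part of tissue proportions in the aquaporin values was not tested.

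The vacuolar TIP genes held the largest share of aquaporin transcripts, and TIP2-1 had the smallest p of the family. TIP2-1 (AT3G16240, chromosome 3), a channel of the vacuolar membrane that also passes ammonia, had 1190.2, 897 and 1167 CPM in ucp1 ucp3 replicates 1 to 3, against 676, 537 and 516 CPM in wild-type replicates 1 to 3. The groups did not overlap, and the lowest labelled mutant stood well above the highest wild-type library. The means were 1085 ± 163 CPM in the labelled mutants and 576 ± 86.9 CPM in wild-type (SD, n = 3 each), a 1.88-fold rise. The log2 fold change was 0.91 (SE 0.14, 95% interval 0.60 to 1.22, edgeR adjusted p = 0.00753). TIP2-1 was called in all 15 alternative fits, with log2 fold changes from 0.83 to 1.05. On the opposite strand, 7.8% of its 31-base words occur in PnsB3 (AT3G16250), and reads of overlapping genes on different strands could not be told apart with the strand setting not given.

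TIP1-2 (AT3G26520), the most abundant aquaporin transcript here and like TIP2-1 a water channel of the vacuole, had 1729, 1199 and 1596 CPM in the labelled mutants, against 1085, 1011 and 965 CPM in wild-type. The groups did not overlap, but the gene did not pass (log2 fold change 0.56, 95% interval 0.26 to 0.86, edgeR adjusted p = 0.0657). Without M2 its adjusted p was 0.0143. Its closest relative TIP1-1 (AT2G36830), the gamma-TIP of growing cells, had 476, 383 and 402 CPM in the labelled mutants, against 419.6, 412 and 343 CPM in wild-type. These values overlapped, and the interval of the log2 fold change, -0.16 to 0.37, lay below the estimate for TIP2-1 (TIP1-1 estimate 0.10, edgeR adjusted p = 0.749).

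TIP2-2 (AT4G17340), a further vacuolar water channel, had 159, 94.8 and 133 CPM in the labelled mutants, against 100.1, 89.2 and 58.1 CPM in wild-type, and the groups overlapped (log2 fold change 0.63, edgeR adjusted p = 0.262). TIP4-1 (AT2G25810), known from roots, had 24.2, 12.4 and 8.12 CPM in the labelled mutants, against 7.78, 11.1 and 10.2 CPM in wild-type (0.73, edgeR adjusted p = 0.275). One labelled mutant, replicate 1, held the high value, and the other labelled mutants lay within or near the wild-type range. TIP2-3 (AT5G47450), which like TIP2-1 passes ammonia, was as scattered, at 15.8, 5.27 and 10.8 CPM in the labelled mutants, against 12.7, 9.42 and 3.49 CPM in wild-type (0.17, edgeR adjusted p = 0.939). The 6 tested TIP genes had a median log2 fold change of 0.60, with 6 of 6 estimates above 0. Without M1 that median was 0.33, and without M2 it was 0.78.

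Among the PIP1 genes, whose products form part of the water channels of the plasma membrane, 2 of 5 were called higher. Over all tested genes the share was 0.781%, and 3.01% among those with a mean of at least 100 CPM, as all 5 have. PIP1-3 (AT1G01620, chromosome 1) had 595, 439.8 and 601 CPM in the labelled mutants, against 322, 348 and 239 CPM in wild-type. The groups were well apart, with means of 545 ± 91.6 CPM in the labelled mutants and 303 ± 57.3 CPM in wild-type (SD, n = 3 each). This was a 1.79-fold rise, with a log2 fold change of 0.84 (SE 0.16, 95% interval 0.50 to 1.18, edgeR adjusted p = 0.0260). The call was lost without W1 (edgeR adjusted p = 0.0860), M1 (0.125) or M3 (0.114), and over the 15 alternatives the log2 fold change stayed between 0.70 and 0.98.

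PIP1-5 (AT4G23400, chromosome 4) had 311, 252 and 370.1 CPM in the labelled mutants, against 207, 206 and 188 CPM in wild-type. The wild-type libraries lay close together, at 200.3 ± 10.6 CPM, and all 3 labelled mutants lay above them, at 311 ± 59.3 CPM (SD, n = 3 each). The rise was 1.54-fold (log2 fold change 0.62, SE 0.13, 95% interval 0.33 to 0.90, edgeR adjusted p = 0.0389). Of the fits with 1 library left out, the one without M2 kept this call (edgeR adjusted p = 0.0103). Leaving out any other library ended it, with adjusted p between 0.0676 without W2 and 0.131 without W1, M1 or M3, while without W3 it was 0.0989.

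PIP1-2 (AT2G45960), a gene expressed in leaves and roots whose protein has been linked to water and carbon dioxide transport, had 690.25, 554 and 699 CPM in the labelled mutants, against 472, 483 and 456 CPM in wild-type. The groups did not overlap and the gene did not pass (log2 fold change 0.46, SE 0.12, edgeR adjusted p = 0.0763). Without M2 the adjusted p was 0.0273. PIP1-1 (AT3G61430) had 320.3, 223 and 292 CPM in the labelled mutants, against 249.9, 275 and 217 CPM in wild-type, with overlapping groups (0.16, edgeR adjusted p = 0.617).

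PIP1-4 (AT4G00430), which also passes hydrogen peroxide, had 121, 129 and 158 CPM in the labelled mutants, against 141, 139 and 120.2 CPM in wild-type. Its estimate was 0.00 with an interval of -0.26 to 0.27, and it turned below 0 when libraries were scaled by their totals (-0.06). It was also the PIP1 gene with the most reads outside its first transcript model. Its second model took 17.57%, 27.08% and 22.19% of its reads in the labelled mutants, against 11.91%, 27.51% and 14.49% in wild-type, and these shares overlapped. In PIP1-3 the first model held at least 99.47% of the reads of every library, and PIP1-5 has a single model.

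**Figure D2:**
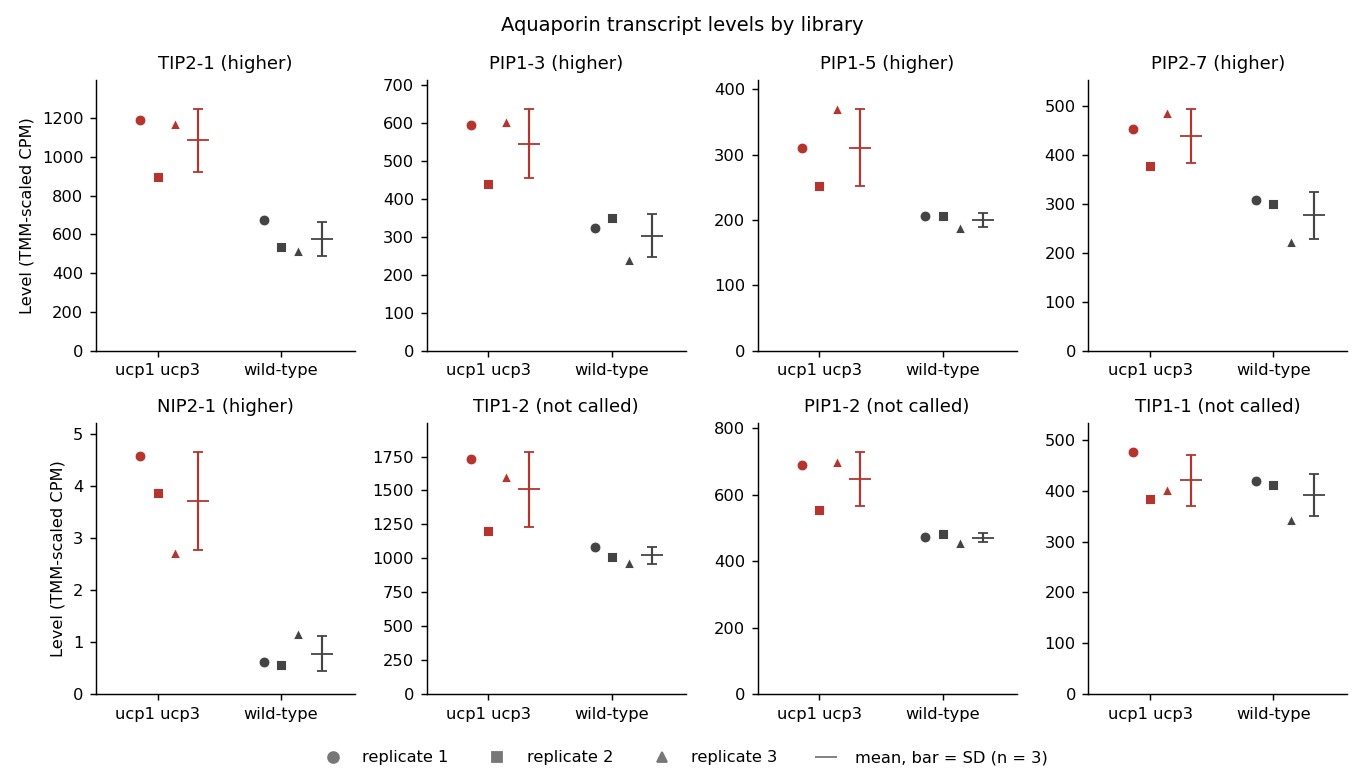
Levels in TMM-scaled CPM of 8 aquaporin genes in each library, ucp1 ucp3 left and wild-type right, with marker shapes for replicates 1 to 3 and the mean with its SD beside them (n = 3). In all panels but that of TIP1-1, every ucp1 ucp3 library lies above every wild-type library, and replicate 2 is the lowest ucp1 ucp3 library in 7 of the 8 panels.

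Among the PIP2 genes, which form water channels by themselves, 1 of 8 was called higher, against 0.781% of all tested genes. PIP2-7 (AT4G35100, chromosome 4) had 453, 377 and 485 CPM in the labelled mutants, against 307, 299 and 221.5 CPM in wild-type. The lowest labelled mutant was above the highest wild-type library, with means of 438 ± 55.5 CPM in the labelled mutants and 276 ± 47.4 CPM in wild-type (SD, n = 3 each). The log2 fold change was 0.66 (SE 0.14, 95% interval 0.36 to 0.96, edgeR adjusted p = 0.0372), a 1.58-fold rise. The call was lost without W1 (edgeR adjusted p = 0.0919), W3 (0.0966), M1 (0.14) or M3 (0.135), with log2 fold changes of 0.52 to 0.76 over all 15 alternatives.

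Its closest relative PIP2-8 (AT2G16850) was far rarer, at 13.7, 13.2 and 17.2 CPM in the labelled mutants, against 12.1, 9.42 and 8.83 CPM in wild-type. The groups did not overlap, and the gene did not pass (log2 fold change 0.45, edgeR adjusted p = 0.267). PIP2-1 (AT3G53420), the most abundant PIP2 transcript and a water channel of roots, veins and guard cells, had 597, 454 and 637 CPM in the labelled mutants, against 404, 486 and 353 CPM in wild-type. Here M2 lay below W2, and the gene did not pass (0.44, 95% interval 0.12 to 0.75, edgeR adjusted p = 0.154). PIP2-6 (AT2G39010) had 241, 258 and 303 CPM in the labelled mutants, against 263, 212 and 261 CPM in wild-type (0.11, edgeR adjusted p = 0.715).

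PIP2-2 and PIP2-3 had nearly the same coding sequence, so their reads are hard to divide. Both are 858 bases long and differ at 45 of them, an identity of 94.8%, and they share an unbroken run of 242 bases from base 175 on. The stretch with the most differences is shown for both genes because reads can be told apart there, from base 403 to base 492, with the 12 bases that differ in capitals.
PIP2-2: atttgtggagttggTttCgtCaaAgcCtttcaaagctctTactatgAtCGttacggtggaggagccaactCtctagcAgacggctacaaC
PIP2-3: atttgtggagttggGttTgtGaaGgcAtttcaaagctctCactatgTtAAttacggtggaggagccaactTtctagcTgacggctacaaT
Over the annotated transcripts, 24.4% of the 31-base words of PIP2-2 and 26.8% of those of PIP2-3 are shared with other loci, nearly all between the pair. PIP2-2 (AT2G37170), a root water channel, had 239, 139 and 169.7 CPM in the labelled mutants, against 153, 197 and 136 CPM in wild-type. PIP2-3 (AT2G37180), first described as a desiccation-responsive gene, had 24.9, 15.5 and 16.2 CPM in the labelled mutants, against 13.3, 26.0 and 15.6 CPM in wild-type. Both overlapped between groups and did not pass (log2 fold changes 0.18 and 0.07, edgeR adjusted p = 0.743 and 0.941), and how the estimated counts divided shared reads cannot be seen in the tables.

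PIP2-4 (AT5G60660), a root-expressed water channel, was the one PIP gene with an estimate below 0. It had 26.0, 10.7 and 15.3 CPM in the labelled mutants, against 23.7, 35.7 and 13.5 CPM in wild-type. The replicates of both groups were widely scattered, the groups overlapped, and the interval of the log2 fold change ran from -1.75 to 0.72 (estimate -0.52, edgeR adjusted p = 0.686). PIP2-5 (AT3G54820) had between 7.30 and 11.7 CPM in the labelled mutants and between 5.26 and 7.57 CPM in wild-type, and did not pass (0.27, edgeR adjusted p = 0.668).

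The NIP genes, carriers of boric acid, arsenite, lactic acid and other small solutes, did not move together. NIP2-1 (AT2G34390, chromosome 2), whose protein passes lactic acid and whose transcript is known to be induced when roots lack oxygen, had the largest estimated fold change of the tested members. It reached the read filter's level in 3 labelled mutants and 0 wild-type libraries, so it was tested only because it was high in the labelled mutants, and its difference is given with that limit. It had 4.57, 3.87 and 2.71 CPM in the labelled mutants, against 0.614, 0.554 and 1.16 CPM in wild-type. These values stood on 20, 44 and 3 reads in the labelled mutants, against 3, 2 and 5 reads in wild-type, so M3 and W1 lay at the floor of 3 counts and W2 below it. The groups did not overlap.

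The log2 fold change of NIP2-1 was 2.31 (SE 0.44, 95% interval 1.37 to 3.24, edgeR adjusted p = 0.0230). Because the gene was tested only through the labelled mutants, where it was high, this p and the intervals are descriptions and no support for a difference. With the reads pooled, 67 in the labelled mutants (44 of them from M2) and 10 in wild-type, the ratio per scaled library size was 5.09. Its counting interval of 2.60 to 11.1 covers counting error only, not the spread between libraries. Leaving out W1 (edgeR adjusted p = 0.130), M1 (0.104) or M3 (0.0510) ended the call. DESeq2 gave no adjusted p for it. Assignment of its reads is uncertain: 57.2% of its 31-base words lie on the opposite strand of AT2G08660, a long non-coding RNA locus not analysed here, and 14.1% are shared on the same strand with AT2G29870, which had 0 reads in every library.

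NIP5-1 (AT4G10380), the boric acid channel of root uptake, had 49.8, 38.8 and 41.5 CPM in the labelled mutants, against 47.1, 46.0 and 58.8 CPM in wild-type, and the groups overlapped. Its log2 fold change was -0.23 (95% interval -0.53 to 0.08, edgeR adjusted p = 0.468). NIP1-1 (AT4G19030), a channel that passes arsenite and hydrogen peroxide, had 16.7, 16.2 and 18.1 CPM in the labelled mutants, against 12.3, 18.8 and 5.81 CPM in wild-type (0.46, edgeR adjusted p = 0.534). Its wild-type libraries were far more scattered than the labelled mutants.

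NIP1-2 (AT4G18910), which transports aluminium malate, had 10.3, 11.9 and 7.22 CPM in the labelled mutants, against 10.4, 13.3 and 19.8 CPM in wild-type (log2 fold change -0.43, edgeR adjusted p = 0.402). NIP3-1 (AT1G31885), linked to arsenite uptake, had 5.94, 7.03 and 2.71 CPM in the labelled mutants, against 6.35, 6.65 and 7.205 CPM in wild-type (-0.13, edgeR adjusted p = 0.940). NIP6-1 (AT1G80760), a boric acid channel of nodes and young tissue, had 3.20, 3.16 and 2.71 CPM in the labelled mutants, against 1.84, 1.94 and 4.88 CPM in wild-type (0.11, edgeR adjusted p = 0.940). All 3 genes overlapped between groups, and the values of M3 for NIP3-1 and NIP6-1 rested on 3 reads each. NIP6-1 reached the read filter's level in 3 labelled mutants and 1 wild-type library. The median over the 6 tested NIP genes was -0.01, with 3 estimates above 0 and 3 below.

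The SIP genes of the endoplasmic reticulum had close values in both groups. SIP1-1 (AT3G04090), the most abundant of them, had 83.6, 70.2 and 69.5 CPM in the labelled mutants, against 84.1, 74.5 and 72.3 CPM in wild-type. SIP2-1 (AT3G56950) had 25.8, 24.5 and 28.0 CPM in the labelled mutants, against 24.8, 27.1 and 32.1 CPM in wild-type. Both overlapped, with log2 fold changes of -0.04 (95% interval -0.30 to 0.21, edgeR adjusted p = 0.920) and -0.13 (-0.44 to 0.18, edgeR adjusted p = 0.724), and 9.1% of the 31-base words of SIP2-1 lie on the opposite strand of CRD1 (AT3G56940). SIP1-2 (AT5G18290) had between 3.66 and 6.32 CPM in the labelled mutants and between 3.95 and 5.73 CPM in wild-type (0.03, edgeR adjusted p = 0.986).

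Reads were too few to test 7 genes. TIP1-3 (AT4G01470) and TIP5-1 (AT3G47440), known from pollen, had 0 reads in every library, as did the seed gene TIP3-2 (AT1G17810) and NIP4-1 (AT5G37810), known from pollen as well. TIP3-1 (AT1G73190), the alpha-TIP of seeds, had 2 reads, both in W3. NIP4-2 (AT5G37820) had 2 reads in the labelled mutants and 3 in wild-type, and NIP7-1 (AT3G06100), an anther gene, had 13 reads in the labelled mutants and 5 in wild-type. A count of 0 allows a level of up to 2.71 CPM in M3 and between 0.264 and 0.831 CPM in the other 5 libraries.

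Levels of different genes were compared in TPM, which unlike CPM takes account of transcript length. TIP1-2 led with 1477 ± 208 TPM in the labelled mutants and 1077 ± 69.1 TPM in wild-type (SD, n = 3 each), followed by TIP2-1 with 1124 ± 122 TPM in the labelled mutants and 643 ± 95.3 TPM in wild-type. Next in the labelled mutants came PIP1-2 with 582 ± 49.97 TPM, against 454 ± 21.5 TPM in wild-type, and PIP2-1 with 513 ± 69.5 TPM, against 406 ± 72.5 TPM in wild-type. In wild-type, PIP1-2, TIP1-1 (479.8 ± 57.4 TPM) and PIP2-1 stood within their spread of each other. The first and second genes stood apart from each other and from the rest by more than their SDs in both groups.

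TIP1-2 made up 22.2% of the summed aquaporin TPM in the labelled mutants and 21.3% in wild-type, and TIP2-1 made up 16.9% in the labelled mutants and 12.7% in wild-type. TIP1-1 was at rank 6 in the labelled mutants, with 7.19%, and at rank 3 in wild-type, with 9.49%. Over all 6 libraries the 13 most abundant genes, from TIP1-2 down to PIP1-4, made up 95.1%. SIP1-1 followed with 85.5 TPM over all libraries and NIP5-1, the most abundant NIP transcript, with 36.6 TPM. NIP2-1 had 3.97 ± 0.988 TPM in the labelled mutants and 0.887 ± 0.369 TPM in wild-type (SD, n = 3 each). It was the rarest tested gene in wild-type, while in the labelled mutants NIP6-1 was rarer, at 2.95 TPM.

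Most of the genes called higher were abundant. With 100 CPM over the 6 libraries as a dividing level, chosen after the values were seen, 13 aquaporins lay above it. Of these 13, 4 were called higher, against 3.01% of the 1861 genes at that level. All 13 estimates were at or above 0, with a median log2 fold change of 0.46, against 948 of 1861 genes above 0 and a median of 0.00. One of the 13, PIP1-4, turned to -0.06 when libraries were scaled by their totals. Of the 15 tested aquaporins below that level, 1 was called higher, which was NIP2-1, against 0.514% of the 15554 genes below it. Estimates were above 0 in 9 of the 15, NIP2-1 and NIP6-1 among them, against 49.5% of those genes, and the median of the 15 was 0.07. Without M3 the one call above the level was TIP2-1.

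**Figure D3:**
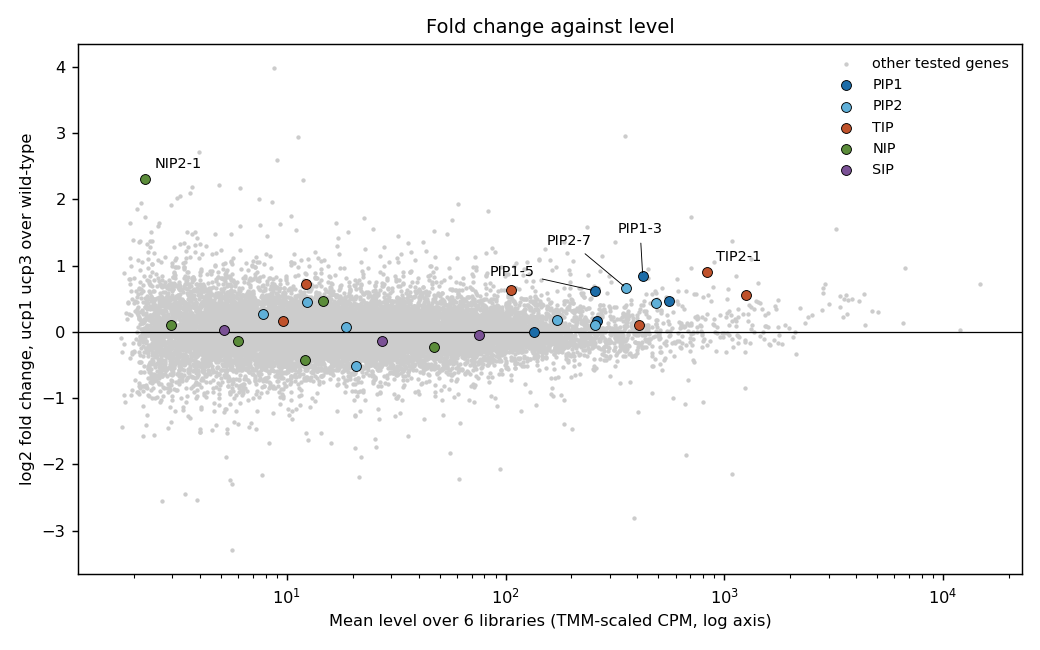
Log2 fold change, ucp1 ucp3 over wild-type, against the mean level over 6 libraries in TMM-scaled CPM on a log axis, for aquaporins (coloured by subfamily) and other tested genes (grey). The 13 aquaporins above 100 CPM have estimates from 0.00 to 0.91, and NIP2-1 stands alone at the low end with 2.31.

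Summed over members, the TIP, PIP1 and PIP2 genes had higher levels in the labelled mutants, and the NIP and SIP genes did not. The TIP sum was 3595 CPM, 2592 CPM and 3317 CPM in the labelled mutants, against 2301 CPM, 2070.5 CPM and 1897 CPM in wild-type. The PIP1 sum was 2037, 1597 and 2120 CPM in the labelled mutants, against 1392, 1452 and 1219.7 CPM in wild-type. Neither sum overlapped between groups, and the log2 ratios of the group means were 0.60 and 0.50.

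The PIP2 sum was 1603, 1274 and 1656 CPM in the labelled mutants, against 1183, 1271 and 1017 CPM in wild-type. Here M2 and W2 nearly touched, and in TPM they overlapped, with 1285 TPM in that mutant library against 1335 TPM in that wild-type library. The log2 ratio of the PIP2 sums was 0.39 in CPM and 0.28 in TPM. The NIP sum was 92.1, 81.6 and 74.9 CPM in the labelled mutants, against 79.0, 88.1 and 98.3 CPM in wild-type, and the groups overlapped (log2 ratio -0.09).

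For the SIP genes the summed level was 113, 100.6 and 104 CPM in the labelled mutants, against 115, 107 and 108 CPM in wild-type. These groups overlapped in CPM (log2 ratio -0.06) and not in TPM, where every labelled mutant lay below wild-type, at 118, 115 and 111 TPM against 133, 128 and 124 TPM (log2 ratio -0.16). All 35 genes together took 0.708%, 0.584% and 0.702% of the library's TPM in the labelled mutants, against 0.532%, 0.536% and 0.448% in wild-type. The TIP share of the aquaporin TPM was 50.8%, 48.4% and 48.1% in the labelled mutants, against 48.1%, 44.1% and 46.3% in wild-type.

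**Figure D4:**
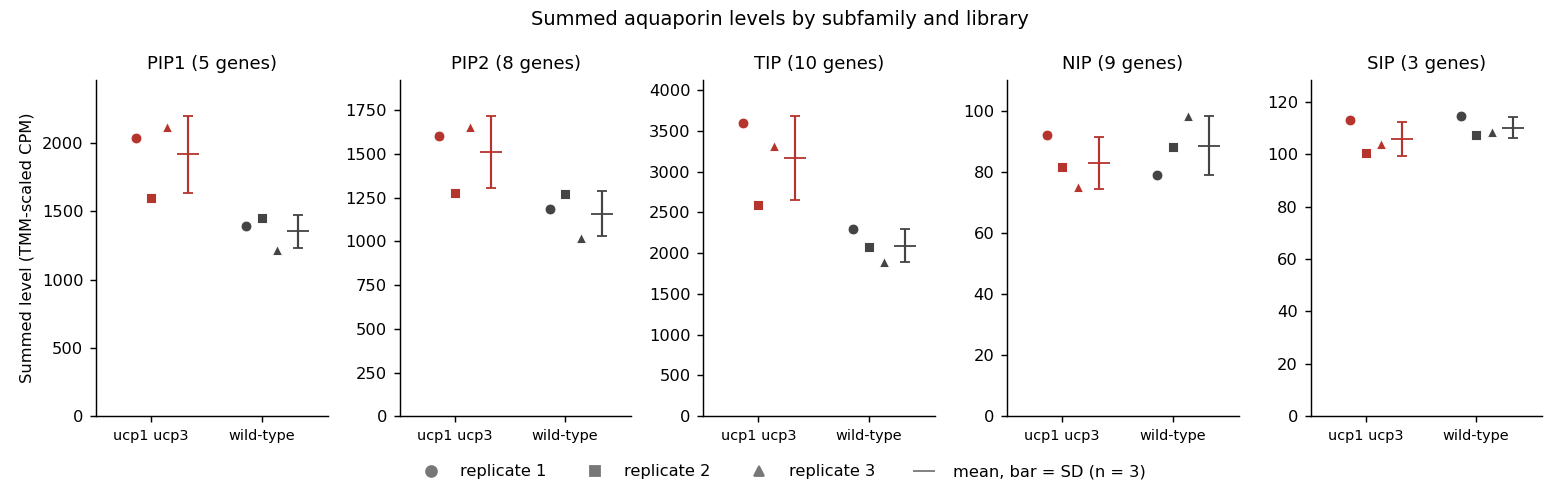
Summed levels of each subfamily in TMM-scaled CPM by library, ucp1 ucp3 left and wild-type right, with marker shapes for replicates 1 to 3 and the mean with its SD (n = 3). The PIP1 and TIP sums of the groups do not overlap, the PIP2 sums are separated by only 1274 against 1271 CPM, and the NIP and SIP sums overlap.

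Within each group the same library tended to be low for most members. In M2, the deepest library, 19 of the 28 tested aquaporins (67.9%) had their lowest level of the group, against 27.6% of all tested genes. In W3, 18 of the 28 (64.3%) had the lowest wild-type level, against 35.9% of all tested genes. Among the 13 abundant members these counts were 11 (84.6%, against 31.3% of genes at that level) and 12 (92.3%, against 40.0%). By these counts the members shared a low library more often than all tested genes did, so their values cannot be taken as independent of each other. Dependence between members was not tested.

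Other genes that act on aquaporins did not pass. Of 9 genes of aquaporin traffic and degradation, 8 were tested. Of these 8, 0 were called higher and 0 lower, against 0.781% and 0.482% of all tested genes, and the median log2 fold change was 0.01. SYP121, a plasma membrane syntaxin that delivers PIP proteins, had 69.2, 49.8 and 71.3 CPM in the labelled mutants, against 40.7, 51.8 and 50.9 CPM in wild-type (0.37, edgeR adjusted p = 0.250). RMA2, a ubiquitin ligase of the family that marks PIP2 proteins for breakdown, had 14.4, 12.1 and 16.2 CPM in the labelled mutants, against 16.8, 14.7 and 24.9 CPM in wild-type (-0.48, edgeR adjusted p = 0.263). Both overlapped between groups. Of the 8 tested, every labelled mutant lay above every wild-type library in 2 (VAMP721 and VAMP711) and below in 1 (SYP61), against 11.2% and 12.4% of all tested genes.

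Of 4 kinase genes of aquaporin phosphorylation, all tested, 0 were called in either direction, with a median of 0.07. SIRK1, a receptor kinase that acts on PIP2 proteins, had 22.8, 27.7 and 28.0 CPM in the labelled mutants, against 30.3, 35.5 and 29.1 CPM in wild-type, without overlap (-0.28, edgeR adjusted p = 0.372). For its coreceptor gene QSK1 the estimate was 0.10 (edgeR adjusted p = 0.723), with every labelled mutant above every wild-type library. Of all tested genes, 11.2% lay above in this way and 12.4% below. Of 7 genes of proton pumps and boron export, 6 were tested, 0 were called, and the median was -0.13. BOR2, a boron exporter, had 53.2, 51.7 and 50.6 CPM in the labelled mutants, against 40.1, 41.3 and 38.1 CPM in wild-type. Its groups were tight and did not overlap, and it did not pass (0.39, edgeR adjusted p = 0.110). AHA2, a proton pump gene, was estimated at -0.31 (edgeR adjusted p = 0.354). Across these 3 lists DESeq2 and limma-voom called 0 genes as well, and at an unadjusted p under 0.05 there were 2 higher (SYP121 and BOR2) and 1 lower (RMA2), against 8.04% higher and 8.37% lower of all tested genes.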

How the data were processed

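Strand-marking Illumina libraries of polyadenylated RNA were quantified by the authors per transcript model. The deposited tables hold estimated counts and TPM, per the file headers. Kallisto, DESeq2 and TAIR10 appear in the submitters' processing notes. Versions, transcript index and strand setting are not given in the sources used here. Estimated counts deposited by the authors for 35386 models were summed to 27416 loci and rounded to whole numbers, and TPM values deposited by the authors were summed likewise. RefSeq TAIR10.1 supplied names and coding sequences (35 of 35 members, 26719 loci), and its coordinates are not printed. The coding sequence of the RefSeq transcript with the lowest accession was taken for each member.

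Totals per library were 4484779, 11296133 and 1183600 reads in ucp1 ucp3 replicates 1 to 3 and 4813548, 3497070 and 4236327 reads in wild-type replicates 1 to 3. Floors of 3 counts cover counting error only. All 6 libraries entered one edgeR 4.0.16 fit in R 4.3.3 with genotype as its only term. It used the default expression filter (2.29 CPM in at least 3 libraries), TMM factors and a quasi-likelihood test with robust dispersions. P-values were adjusted by Benjamini-Hochberg over 17415 genes. Fold changes are ucp1 ucp3 over wild-type, and levels are CPM over the TMM-scaled library size. Sharing between loci was counted in 31-base words of annotated mRNAs. The procedure was tested on simulated data. Alternatives included DESeq2 1.42.0 and limma-voom (limma 3.58.1).

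Members and gene lists were chosen with earlier results of these data known. Named by rule were all called members, the 2 most abundant per subfamily by TPM, the 6 uncalled with the smallest p, and 2 genes per other list. Other genes, the 100 CPM level and the library orders were chosen after their values were seen.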

Additional observations from a re-analysis of the deposited data

How the results depend on the processing

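TIP2-1 was called in all 15 alternatives. Of the alternatives that tested them and gave an adjusted p, PIP1-3 was called in 12 of 15, PIP2-7 in 10 of 15, PIP1-5 in 9 of 15 and NIP2-1 in 9 of 12. NIP2-1 passed the read filter only through the labelled mutants, so its count is a description. TIP1-2 was called in 4 and PIP1-2 in 3, among them the fit without a filter and DESeq2. The number of aquaporins called higher is given with the share of all tested genes called higher in the same fit. It was 5 with RLE size factors (0.775%), library totals (0.626%) and limma-voom (0.706%). It was also 5 without robust estimation (0.804%) and after thinning to the shallowest library (1.49%). It was 4 with a stricter filter (0.819%), 6 with DESeq2 (1.34%) and 7 without a filter (1.17%). With 1 library left out it ranged from 1 to 7 (0.175% to 1.84%), and 0 were called lower in all 15 alternatives. The thinned data and the stricter filter did not test NIP2-1. Scaling by library totals divided all calls into 109 higher and 110 lower, against 136 and 84 with TMM. Over all genes there were 267 higher and 223 lower without a filter, 234 and 150 with DESeq2, 203 and 143 after thinning, and between 31 and 326 higher and 16 and 347 lower with 1 library left out.

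With the replicate number as a block, 3 aquaporins were called higher, and over all genes 122 were higher (0.701% of those tested) and 45 lower. Deviations from the group means of same-numbered libraries correlated at -0.101, -0.158 and -0.0593 over 12538 genes. Such deviations balance out within a group, so these values cannot show whether the replicate numbers pair the samples. The block result is therefore given as one of the alternatives.

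With 1 library left out, the median log2 fold change ranged from 0.41 to 0.56 for PIP1, 0.20 to 0.39 for PIP2, 0.33 to 0.78 for TIP, -0.17 to 0.06 for NIP, -0.14 to 0.04 for SIP and 0.14 to 0.39 for all aquaporins. The log2 ratio of summed levels ranged from 0.42 to 0.62 for PIP1, 0.30 to 0.49 for PIP2, 0.50 to 0.73 for TIP, -0.18 to -0.01 for NIP and -0.11 to -0.02 for SIP. In TPM the SIP ratio was -0.16.

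Estimates near 0 changed sign in genes that were not called in any of these fits, and the cause was not tested. PIP1-4 became -0.06 with library totals, -0.00 without a filter and -0.01 with limma-voom. SIP1-2 became -0.01 with library totals and -0.06 with the block, and SIP2-1 became 0.06 after thinning. With 1 library left out, the estimate ranged from -0.09 to 0.08 for PIP1-4, -0.09 to 0.36 for PIP2-2, -0.20 to 0.40 for PIP2-3, -0.00 to 0.17 for TIP1-1, -0.46 to 0.73 for TIP2-3, -0.15 to 0.72 for NIP6-1, -0.14 to 0.04 for SIP1-1 and -0.23 to 0.23 for SIP1-2. Depth limits the rare members most, since 3 reads in the shallowest library stand for 2.71 CPM.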

Other observations

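Ratios between close relatives within a library do not depend on how libraries were scaled. They were computed for 6 pairs chosen after the values were seen. The TPM ratio of PIP1-3 to PIP1-4 was 6.16, 4.19 and 4.71 in the labelled mutants, against 2.89, 3.08 and 2.51 in wild-type. The ratio of TIP1-2 to TIP1-1 was 3.14, 2.70 and 3.43 in the labelled mutants, against 2.23, 2.11 and 2.42 in wild-type. For PIP1-2 over PIP1-1 it was 2.099, 2.41 and 2.33 in the labelled mutants, against 1.84, 1.71 and 2.05 in wild-type. In these 3 pairs every labelled mutant lay above every wild-type library. The two-sided exact permutation p was 0.1, the smallest that 3 libraries against 3 allow, and 0.2 after Benjamini-Hochberg adjustment over the 6 pairs, so this exact test cannot reach 0.05 with these libraries.

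In the other 3 pairs the groups overlapped. TIP2-1 over TIP2-2 was 6.21, 7.86 and 7.31 in the labelled mutants, against 5.61, 4.98 and 7.35 in wild-type (exact permutation p = 0.3), although TIP2-1 was called and TIP2-2 was not. PIP2-7 over PIP2-8 was 31.6, 27.3 and 27.0 in the labelled mutants, against 24.3, 30.3 and 23.9 in wild-type (exact permutation p = 0.3). PIP2-2 over PIP2-3 was 9.64, 9.03 and 10.2 in the labelled mutants, against 11.5, 7.56 and 8.72 in wild-type (exact permutation p = 0.8).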
